A study of Homo sapiens with 24 samples.

Results

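The untreated control is the starting state of MDA686TU cells, and its 6 libraries of the 24 in the series are described here gene by gene. They were chosen by their label alone, and no expression value entered the choice. This line was established from a head and neck squamous carcinoma. It was grown in DMEM/F12 with 10% fetal bovine serum, and RNA from all groups was sequenced as stranded mRNA libraries. The other 3 groups of 6 libraries received EGCG (epigallocatechin gallate, a green tea polyphenol) at 40 µM, resveratrol (a grape stilbenoid) at 15 µM, or both at these doses, for 24 h. The control received neither agent. Resveratrol came from a DMSO stock and EGCG was dissolved in water, and whether the control cells were given DMSO is not stated. All results concern 1 cell line without stromal or immune cells added. The labels give each replicate a number but do not say that they came from separate cultures, so every spread and p-value measures differences between these libraries, which may be technical.

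Stratified squamous epithelium is built from a basal layer of dividing cells that hold on to the basement membrane and give rise to flatter, cornifying cells above. Basal cells pair the type II keratin KRT5 with the type I keratin KRT14, under the transcription factor p63 (gene TP63), and switch to KRT1 and KRT10 as they leave the basal layer in skin. KRT6, KRT16 and KRT17 mark activated or wounded epithelium, and KRT4 with KRT13 marks the differentiated lining of the mouth. Squamous carcinomas of the head and neck often keep the basal program and depend on the EGF receptor.

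Levels are the authors' FPKM (fragments scaled to gene length and to library size), the only one of the deposited scales that accounts for gene length. For 73.7% of the genes checked, that length was all annotated exons of the gene merged. Where this is longer than the mRNA the cells made, FPKM is too low, by an amount that differs between genes. Order between genes is therefore approximate. All gene positions are from GENCODE v44 on GRCh38. The 6 libraries held 8542934 to 9737422 counts, and between 22525 and 23252 genes had a count in each. All means below are over these 6 libraries with the SD. Values per library are given as lowest, median and highest.

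The label fitted the markers of a basal squamous line. KRT14 (chr17:41582279-41586895) lay between 1593 and 1703 FPKM with a median of 1663, and its mean of 1654 ± 39.5 was the highest of the 19869 nuclear protein-coding genes. KRT5 (chr12:52514575-52520530) lay at 1234, 1273 and 1317. TP63 lay at 51.7, 54.1 and 55.4, and EGFR at 111, 125 and 133. No library stood apart for any of these 4 genes. Reads per gene do not tell the forms of p63 with and without the N-terminal activation domain apart.

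To show what the starts of abundant and silent genes look like, the 120 bases before the RefSeq start (GRCh38.p14) are printed in the direction of transcription for 5 genes. SFN, the gene of 14-3-3 sigma, was among the 25 most abundant at 979 FPKM and EGFR stood at 124. The keratins KRT10, KRT2 and KRT24 stood at 36.5, 0.00685 and 0. KRT14, KRT6A, KRT17 and KRT1 had no entry in the sequence table. Capitals mark any of 3 words of the TATA box type, found by a search of both strands. The first word is TATAAA, the usual form of the box. Another is TATAAG, which differs in its last base. The last is GATAAA, which differs in its first base.
SFN (chr1:26863029-26863148, plus strand): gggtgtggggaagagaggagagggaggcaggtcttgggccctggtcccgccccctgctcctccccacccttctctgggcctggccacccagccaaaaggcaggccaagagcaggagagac
EGFR (chr7:55018897-55019016, plus strand): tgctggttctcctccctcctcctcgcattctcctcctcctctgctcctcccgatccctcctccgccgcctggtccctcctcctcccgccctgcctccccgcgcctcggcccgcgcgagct
KRT10 (chr17:40822615-40822734, minus strand): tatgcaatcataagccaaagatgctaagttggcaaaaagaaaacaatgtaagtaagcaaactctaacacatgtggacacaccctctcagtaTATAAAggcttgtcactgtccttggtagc
KRT2 (chr12:52652212-52652331, minus strand): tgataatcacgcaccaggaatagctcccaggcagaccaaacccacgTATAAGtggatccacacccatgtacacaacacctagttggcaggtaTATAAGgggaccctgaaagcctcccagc
KRT24 (chr17:40703753-40703872, minus strand): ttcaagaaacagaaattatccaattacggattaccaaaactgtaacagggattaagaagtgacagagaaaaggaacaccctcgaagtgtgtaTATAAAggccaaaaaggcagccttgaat
The 3 keratin windows held such letters 28 or 29 bases before the start, whether the gene was transcribed or had no count in any library, and KRT2 held a second copy farther out. The windows of SFN and EGFR held none. They were 68.3% and 72.5% G and C with 1 and 11 CG pairs, against 39.2% and 0 for KRT10.

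Over 15319 protein-coding genes with an entry, 10.6% of the 120-base windows held at least 1 of the 3 words. TATAAA alone was in 5.97%, TATAAG in 2.83% and GATAAA in 2.72%, on either strand, and the words can overlap. The share was 16.5% for the 284 genes at 100 FPKM or more and 5.23% for the 3174 genes from 10 to 100. It was 5.20% for the 4842 genes from 1 to 10, 12.7% for the 4338 below 1 with counts, and 22.6% for the 2681 without a count. The pooled share was thus higher at both ends of expression than in the middle. At the upper end this held for TATAAA (10.6%) and TATAAG (6.69%). It did not hold for GATAAA, at 1.06% against 1.07% from 10 to 100. Median G and C content was 66.7% at 100 FPKM or more and 54.2% without a count, and the shares were not adjusted for it. CG pairs did not follow the shape of the pooled share: the median window had 12 of them at 100 FPKM or more, 13 from 10 to 100, 12 from 1 to 10, 7.0 below 1, and 2.0 among genes without a count. GGGCGG, the core of an SP1 site, was in 53.5% of windows at 100 FPKM or more and in 20.6% of those of genes without a count, against 47.2% of all. These are descriptions of letters near annotated starts, and which start these cells used was not measured.

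Of the 19869 nuclear protein-coding genes, 9737 (49.0%) were at or above 1 FPKM in every library. By mean level 9 genes passed 1000 FPKM, 346 lay from 100 to 1000, 3810 from 10 to 100, and 5909 from 1 to 10. A further 2685 lay between 0.1 and 1. At the other end 3867 genes (19.5%) had no count in any of the 6 libraries. With 54825618 counts over the 6 libraries, a count of 0 allows a share of up to 0.0547 CPM, from counting error alone. The median gene stood at 1.09 FPKM. The 25 most abundant genes took 11.3% ± 0.0846 of the summed FPKM of nuclear protein-coding genes, and the first 100 took 22.9% ± 0.188.

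Among the 25 most abundant genes were 4 keratins: KRT14, KRT6A (1565 ± 44.5), KRT5 (1275 ± 26.5) and KRT17 (874 ± 22.6). Others came from the cytoskeleton. TMSB10, thymosin beta 10, which binds actin monomers, stood at 1597 ± 61.6, and the actins ACTB and ACTG1 at 1303 ± 29.1 and 987 ± 23.7. Profilin, PFN1, stood at 634 ± 17.3. SFN, 14-3-3 sigma, a keratinocyte protein that holds cells in G2 after damage, reached 979 ± 35.1, and CAV1, the coat protein of caveolae, 613 ± 10.7. The levels of KRT14, TMSB10 and KRT6A overlapped between libraries, with ranges of 1593 to 1703, 1517 to 1658 and 1508 to 1615. Within each library KRT14 stood above KRT6A, while the place of TMSB10 changed from library to library.

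The remaining places went mostly to translation, metabolism and protein folding. EEF1A1, EEF2 and EIF5A carry elongation, and stood at 1445 ± 38.7, 622 ± 11.1 and 646 ± 22.1 FPKM. Ribosomal protein genes in the group were RPL41, RPS2, RPL8 and RPS12, from 1026 down to 715. GAPDH of glycolysis reached 1358 ± 41.1, FTL, the light chain of ferritin, 968 ± 42.1, and GSTP1, a glutathione transferase, 705 ± 22.8. SLC7A5, the light chain of the large neutral amino acid transporter LAT1, stood at 1143 ± 39.4, between 1100 and 1202. HSP90AB1 and HSP90AA1, the cytosolic HSP90 chaperones, stood at 804 ± 12.5 and 690 ± 21.8. S100A11, a calcium-binding protein, stood at 807.

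**Figure D1:**
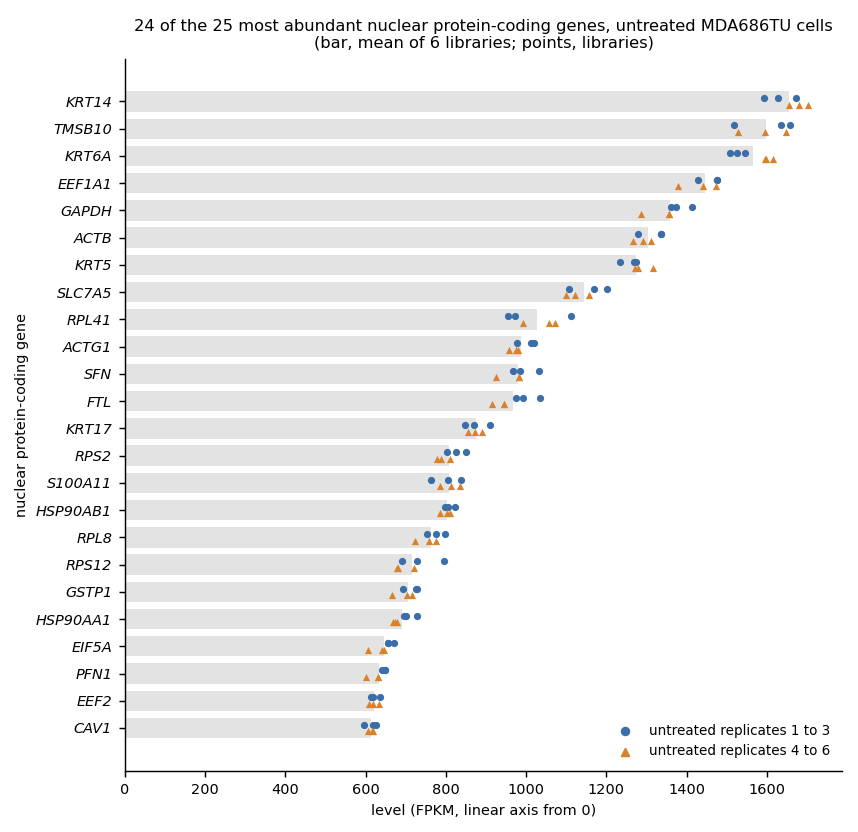
Levels of 24 of the 25 most abundant nuclear protein-coding genes in untreated MDA686TU cells, with FPKM on a linear horizontal axis. Bars are means of 6 libraries, circles replicates 1 to 3 and triangles replicates 4 to 6. KRT14 leads at 1654 and CAV1 closes the group at 613, and for most genes both sets of replicates overlap.

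Keratins were divided sharply. Of 20 keratins of stratified epithelium, 15 were at or above 1 FPKM in all libraries and 7 above 100. Beside the basal pair and KRT17 stood the activation keratins KRT6A, KRT6C (492 ± 26.7), KRT6B (223 ± 20.3) and KRT16 (204 ± 19.9). KRT6A, KRT6B and KRT6C are nearly identical in sequence, so how reads were divided among them is uncertain. KRT10, the suprabasal type I keratin of skin, lay at 35.4, 36.1 and 38.7, about as high as KRT80 at 40.0 ± 0.999. Its usual partner KRT1 lay at 3.39, 3.88 and 4.59.

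The mouth-lining pair KRT13 and KRT4 was low, at 5.14 ± 0.639 and 4.29 ± 0.775, and KRT15, a keratin of quiescent basal cells, stood at 2.21 ± 0.156. KRT76 had 2 counts over the 6 libraries, KRT2, a late skin keratin, had 1, and KRT24 had 0. The simple epithelial keratins KRT19 (129 ± 5.75), KRT18 (104 ± 5.21) and KRT8 (62.9 ± 1.49) were all expressed, while KRT7 lay between 0.935 and 1.48 and KRT20 had 2 counts. Of 15 keratins of hair type, KRT81 stood alone at 16.5, 17.6 and 19. The next, KRT86, was at 1.26 ± 0.147, and the other 13 were below 1 FPKM, 2 of them (KRT35 and KRT38) without a count.

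**Figure D2:**
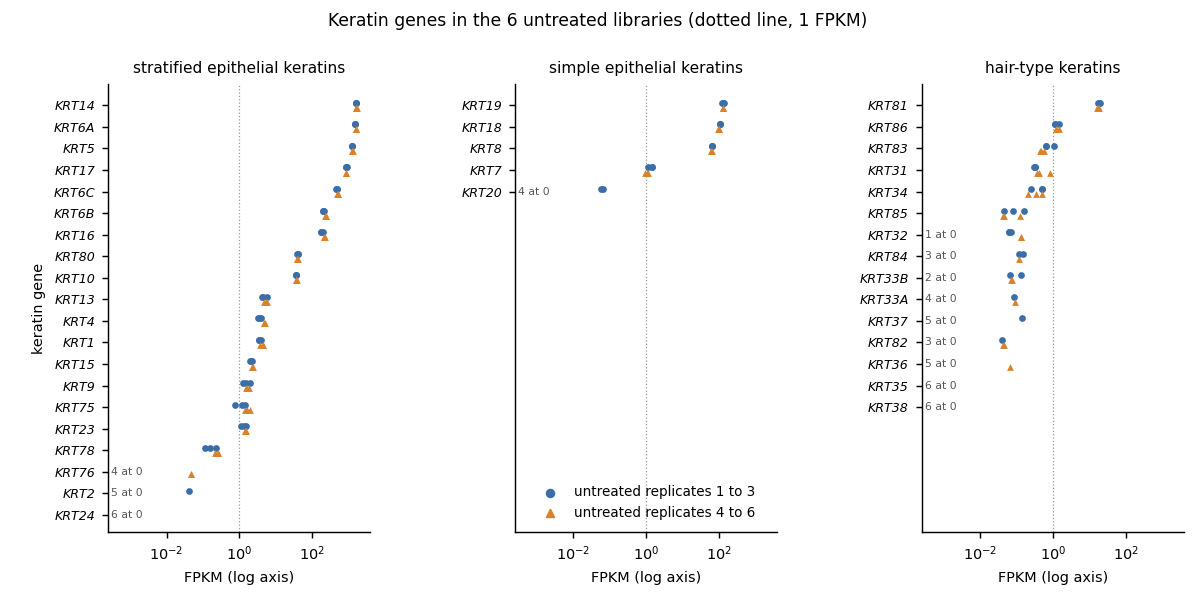
Levels of 40 keratin genes in each untreated library on a log axis of FPKM, by keratin class. Circles are replicates 1 to 3 and triangles replicates 4 to 6, libraries with no count are given as a number at the left, and the dotted line is 1 FPKM. The 7 highest stratified keratins lie above 100, and KRT81 is the hair-type keratin that stands clear of 1.

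Transcription factors of the squamous lineage were mostly expressed. Of 24 listed, 20 were at or above 1 FPKM in all libraries (83.3%), against 49.0% of all nuclear protein-coding genes and 1 of 24 factors of other lineages. Both lists were chosen with earlier results of these data known, so the contrast is a description and not a test. SOX15, a SOX family member of squamous epithelium, was first at 135, 138 and 145. TP63 came next at 53.7 ± 1.51, and KLF5 (44.5 ± 1.87), BNC1 (31.3 ± 0.946) and FOXE1 (21.4 ± 0.767) stood lower. KLF5 is a factor of proliferating epithelium, and BNC1, basonuclin, is a zinc finger protein of basal keratinocytes.

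SOX2, often gained together with TP63 in squamous cancers, lay lower at 6.01, 8.07 and 8.93. Factors with a part in terminal differentiation varied, with KLF4 at 12.9 ± 1.13, GRHL3 at 2.44 ± 0.351, ZNF750 at 2.29 ± 0.351 and OVOL1 at 2.19 ± 0.300. Of the factors of other lineages, FOXA2, of gut and lung endoderm, was the single one above 1, at 1.97 ± 0.177. CDX2 (intestine), GATA1 (blood), GATA4 (heart and gut), SOX10 (neural crest), NEUROD1 (neurons), MYOD1 (muscle), TBX5 (heart), SOX17 (endoderm and endothelium) and PGR (progesterone receptor) had no count.

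Factors that respond to signals were all detected, and 32 of 36 were at or above 1 FPKM throughout. HMGA1, a chromatin protein that bends AT-rich DNA, was highest at 479, 493 and 503. ATF4, the integrated stress response factor, stood at 244 ± 5.84, and FOSL1, an AP-1 subunit induced by ERK signaling, at 208 ± 8.09. FOXM1 (89.3 ± 2.79), of mitotic genes, MYC (82.5 ± 3.84) and ID1 (80.4 ± 3.12), an inhibitor of bHLH factors, followed. Within AP-1 the subunits differed widely: FOSL1 stood beside JUNB at 80.0 ± 3.54 and JUN at 36.7 ± 2.01, while the immediate early subunit FOS lay at 0.404, 0.537 and 0.944 and FOSB at 0.626.

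HOX genes give position along the body axis. Of 39, 6 were at or above 1 FPKM in all libraries, among them HOXC13 (6.63 ± 0.550), a hair and nail gene. HOXC8, HOXB9, HOXA11 and HOXA3 lay between 1.26 and 1.66. HOXB1, HOXC12, HOXD1, HOXD3, HOXD4 and HOXD8 had no count, and 17 of the 39 were below 0.1 FPKM or without a count.

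Genes of attachment to the basement membrane stood high. All 16 genes of hemidesmosomes and the basement membrane were at or above 1 FPKM, with a median of 53.8. Of laminin 332, LAMB3 stood at 219 ± 5.93 and LAMA3 at 35.0 ± 1.23, so the alpha chain was below the beta chain on this per-length scale. The receptor integrin alpha 6 beta 4 stood at 240 ± 6.68 (ITGA6) and 217 ± 9.0 (ITGB4). COL17A1, the transmembrane collagen of the hemidesmosome, reached 142 ± 3.19 and the linker PLEC 156 ± 19.6, whereas its other linker DST stood at 7.89 ± 0.465. In counts over the 6 libraries the gap between the linkers was smaller, 141400 for PLEC and 20184 for DST. Part of their FPKM difference therefore rests on the merged exon lengths. COL7A1, the anchoring fibril collagen, varied most, from 14.3 to 25.5.

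Of 22 desmosome and junction genes, 20 were at or above 1 FPKM in all libraries, with a median of 27.8. JUP, plakoglobin, stood at 129 ± 5.52, PERP, a p63 target in desmosomes, at 118 ± 3.9, and P-cadherin, CDH3, at 90.5 ± 2.74, above E-cadherin, CDH1, at 66.9 ± 0.677. Among desmosomal cadherins DSG2 (31.3 ± 0.907) and DSG3 (24.3 ± 1.71), with DSC3 (19.8 ± 0.565), stood far above the suprabasal forms DSG1 (1.35 ± 0.268) and DSC1 (1.52 ± 0.378). DSG4, of hair, had 4 counts.

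Cornified envelope genes were expressed unevenly. SPRR1B led at 263, 323 and 368, followed by SPRR1A (113 ± 17.2) and CSTA, a protease inhibitor of the envelope, at 96.6 ± 4.89. The plakin PPL stood at 33.1 ± 3.37, involucrin, IVL, at 23.7 ± 4.54 and SPRR2E at 23.3 ± 3.32. Late genes differed among themselves. LORICRIN had 5 counts over 6 libraries, FLG2 13 and CRNN 4, whereas filaggrin, FLG, lay between 4.89 and 8.43 and LCE3D and LCE3E stood at 19.8 ± 4.40 and 10.0 ± 2.98. TGM1, the transglutaminase that cross-links the envelope, stood at 5.19 ± 0.435. SPRR2 genes are close copies of one another, and their division is uncertain.

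S100 proteins were abundant, with 6 of 14 above 100 FPKM in every library. S100A11 (807 ± 28.8) led, then S100A2, a p63 target (425 ± 17.3), S100A10 (365 ± 10.4), S100A6 (227 ± 8.5), S100A16 (211 ± 9.04) and S100A14 (193 ± 9.37). The inflammation pair S100A9 and S100A8 differed, at 84.3 ± 11.9 and 16.7 ± 1.34, and the mesenchymal S100A4 lay at 1.70 ± 0.300. S100B, of glia and melanocytes, had no count.

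Markers of epithelial-mesenchymal transition were mixed. TGFBI, a secreted matrix protein induced by TGF-beta, stood at 232 ± 7.72, TNC at 52.1 ± 1.73 and LGALS1 at 51.5 ± 3.85. The transcription factor SNAI2, also a basal keratinocyte gene, stood at 25.7 ± 1.39, and TWIST1 at 5.13 ± 0.433. Vimentin, VIM, lay at 5.98, 6.46 and 6.87, and the epithelial splicing regulators ESRP1 and ESRP2 at 18.6 ± 0.676 and 12.6 ± 0.582. ZEB1 had 13 counts over 6 libraries and ZEB2 had 1.

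**Figure D3:**
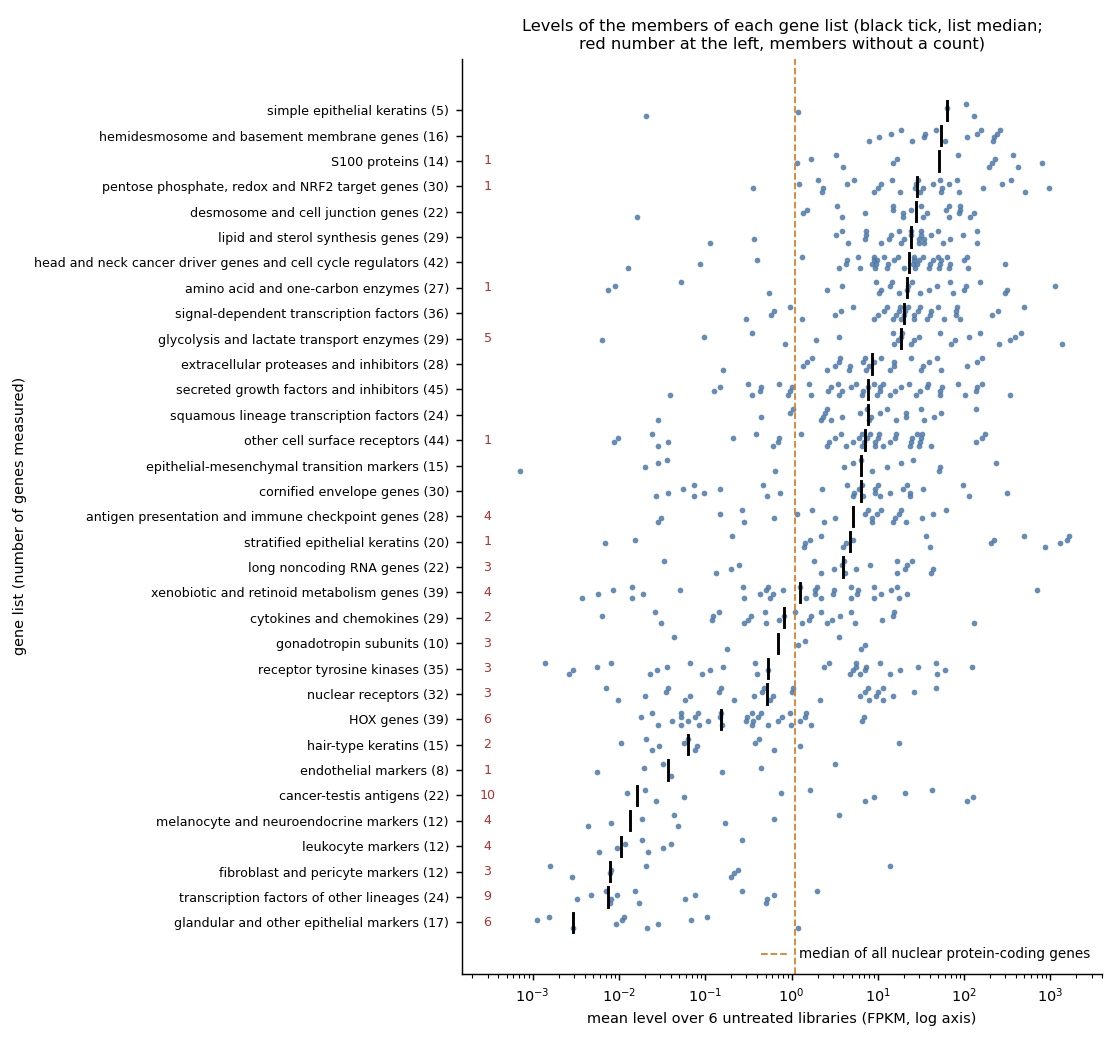
Mean FPKM over the 6 untreated libraries, on a log axis, of every measured member of 33 gene lists ordered by their median. Black ticks are list medians, red numbers count the members without any count, and the dashed line is the median of all nuclear protein-coding genes at 1.09. Hemidesmosome genes center on 53.8, and the lists of leukocyte, fibroblast and other-lineage genes fall to the left of the dashed line apart from single members.

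Of 45 secreted growth factors and inhibitors, 34 were at or above 1 FPKM in all libraries. FGFBP1, which releases FGFs from matrix, was highest at 325, 346 and 358. PTHLH, the hormone behind humoral hypercalcemia, stood at 159 ± 5.18, follistatin, FST, an activin trap, at 142 ± 5.98, and DKK1, a WNT inhibitor, at 102 ± 2.92. The macrophage migration inhibitory factor gene MIF stood at 85.6 ± 4.14, with 48.9% of its merged exon length in exons of another annotated gene on the same strand, so its value is uncertain. GDF15, a stress-induced cytokine, lay at 1.23, 1.46 and 2.07.

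The EGF receptor and its ligands were present together. EGFR stood at 124 ± 7.10, while ERBB2, ERBB3 and ERBB4 stood at 7.36 ± 0.411, 5.60 ± 0.241 and 0.00290. Amphiregulin, AREG, lay at 119, 140 and 145, TGFA at 15.8 ± 0.800, HBEGF at 6.71 ± 0.681 and EREG at 6.63 ± 0.429. BTC (50 counts) and EGF itself (16 counts) were below 1 FPKM. NRG1, a ligand of ERBB3, stood at 13.8 ± 0.739, and ADAM17, a protease that sheds several ligands of this family, at 4.68 ± 0.204. AREG thus exceeded the next ligand of the receptor on the per-length scale in every library.

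Of 35 receptor tyrosine kinases, 17 were at or above 1 FPKM throughout. After EGFR came EPHA2 (60.1 ± 1.44), DDR1, a collagen receptor (47.9 ± 0.973), MET, the HGF receptor (47.5 ± 1.66), AXL (29.2 ± 1.6) and FGFR3 (18 ± 0.735). VEGF ligands were transcribed (VEGFB 38.5 ± 1.87, VEGFC 28.0 ± 1.35, VEGFA 8.98 ± 0.437), whereas their receptors KDR, FLT1 and FLT4 had 2, 1 and 11 counts. PDGFA and PDGFB both stood at 10.6, and the receptors PDGFRA and PDGFRB had 0 and 3 counts. NTRK3, a neurotrophin receptor, had no count.

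Among other receptors tissue factor, F3, which starts coagulation, was highest at 173 ± 7.49. TNFRSF12A, the receptor of TWEAK, stood at 160 ± 5.92 and TFRC, the transferrin receptor, at 139 ± 3.64. JAG2, a NOTCH ligand, stood at 40.9 ± 1.89 and its receptors NOTCH1, NOTCH2 and NOTCH3 at 4.33 ± 0.267, 6.61 ± 0.326 and 2.74 ± 0.436. TGFBR2 exceeded TGFBR1, at 30.2 ± 1.02 against 3.71 ± 0.193. LGR5, a stem cell receptor, had no count.

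The cytokine list had its peak in 1 gene: IL1A lay at 121, 130 and 139, while IL18 and IL1B stood at 15.3 ± 1.06 and 15.0 ± 0.882 and CXCL1 at 11.3 ± 1.54. CXCL8 and IL6 were low, at 2.57 ± 0.395 and 2.18 ± 0.265. IL33 and CCL2 had no count. The IL-1 receptor gene IL1R1 was below 1 FPKM, at 0.709 ± 0.140. Of proteases and their inhibitors, PI3 (elafin) led at 126, 164 and 192, with PLAU, urokinase, at 140 ± 6.52 and SLPI at 108 ± 18.5. MMP14, MMP2 and MMP13 stood at 24.0 ± 1.22, 15.4 ± 0.511 and 13.7 ± 1.08 and MMP9 between 0.978 and 2.47.

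Nuclear receptors were led by the orphan ESRRA (47.6 ± 1.74) and NR2F6 (26.2 ± 1.54), ahead of RXRA, VDR and RARA between 14.8 and 11.4. The glucocorticoid receptor NR3C1 stood at 10.0 ± 0.404. PGR and NR1I2, the pregnane receptor, had no count. In antigen presentation B2M stood at 61.0 ± 3.36, HLA-E at 43.6 ± 1.31, HLA-C at 21.4 ± 2.12 and HLA-B at 10.8 ± 0.747, the last with 32.7% of its exon length shared with another gene. The class II genes HLA-DRA, HLA-DRB1, HLA-DPA1 and HLA-DQA1 had no count, and their activator CIITA had 34. CD274 (PD-L1) lay between 0.345 and 0.768, and CD276 (B7-H3) at 17.5 ± 0.486.

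The glycolysis, redox, amino acid and lipid lists had medians of 18.7, 28.6, 21.9 and 24.3 FPKM, against 1.09 for all genes. In glycolysis GAPDH was followed by TPI1 (460 ± 10.9), ENO1 (392 ± 10.5), PKM (337 ± 5.36), PGAM1 (255 ± 8.86) and LDHA (151 ± 2.54). Of the glucose transporters SLC2A1 carried 70.5 ± 3.34, SLC2A3 0.348, and SLC2A2 no count. The isozymes HK3, PGAM2 and LDHC, of leukocytes, muscle and testis, also had none. ALDOA stood at just 24.5 ± 1.42, but 42.8% of its merged exon length lies in exons of another annotated gene on the same strand, so its value is uncertain. The same holds for ASNS, at 0.543 with 49.3% of its exon length shared.

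Redox genes were led by ferritin (FTL, and FTH1 at 502 ± 22.3), PRDX1 (353 ± 11.7), TXN (275 ± 14.6) and GPX1 (167 ± 13.9), which shares 39.9% of its exon length with another gene. TXNRD1 and NQO1, targets of NRF2, stood at 87.6 ± 1.76 and 82.1 ± 3.79, and NRF2 itself, NFE2L2, at 40.4 ± 1.08, above its inhibitor KEAP1 at 27.3 ± 1.12. HMOX1, the inducible heme oxygenase, was low, at 0.919, 1.16 and 1.61, as were AKR1C1, AKR1C2 and AKR1C3, close copies of one another, between 2.0 and 4.37. TKTL1 had no count.

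In amino acid metabolism SLC7A5 and its heavy chain SLC3A2 (316 ± 7.76) led, then PSAT1 of serine synthesis (296 ± 6.87), SLC1A5, a glutamine carrier (153 ± 3.76), SHMT2 (105 ± 1.78) and ODC1, of polyamines (98.7 ± 3.65). PHGDH, the first step of serine synthesis, stood at 39.1 ± 0.439. IDO1 had no count and ARG1 had 1. Lipid synthesis was led by SCD (142 ± 3.50), DHCR7 (140 ± 3.25), ACLY (95.8 ± 1.84) and FASN (69.0 ± 5.80). In 29 lipid genes only ACACB (0.369) and CPT1B (0.113) were below 1 FPKM. CPT1B shares 66.4% of its exon length with a readthrough gene, so its value is uncertain. CPT1A, the carnitine transferase of non-muscle cells, stood at 56.5 ± 1.35.

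In xenobiotic metabolism GSTP1, at 705, was over an order of magnitude above every other member, with ABCC1 next at 21.7 ± 1.26. ALDH1A3, a retinoic acid enzyme, stood at 16.8 ± 0.739 and CYP1B1 at 14.2 ± 0.592. CYP1A1, also a target of the aryl hydrocarbon receptor, lay at 5.17, 5.97 and 6.59. The liver cytochromes CYP3A4 and CYP2B6, ADH1B and the efflux pump ABCB1 had no count.

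Of genes altered in head and neck cancers, CCND1 led at 289, 300 and 304, and its neighbors on chromosome 11 CTTN, ANO1 and FADD stood at 109 ± 1.73, 52.7 ± 1.70 and 51.3 ± 3.54. The other D cyclins were lower, with CCND3 at 9.14 ± 0.639 and CCND2 at 5 counts. Of proliferation genes PCNA stood at 110 ± 4.0, TOP2A at 100 ± 5.05 and MKI67 at 33.2 ± 3.30. CDKN2A stood at 17.0 ± 1.23 and CDKN1A at 26.2 ± 1.19. TERT, the telomerase subunit, had 28 counts. Levels of RNA say nothing of copy number or mutation, which were not measured.

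Some genes without an obvious place in squamous epithelium were expressed. MAGEA3 and MAGEA6, testis antigens on the X chromosome that are almost identical in sequence, lay at 123, 126 and 136 and at 106, 109 and 112. MAGEA1 followed at 42.2 ± 2.08, MAGEA12 at 20.8 ± 0.943, MAGEA10 at 8.93 ± 0.656 and PRAME at 7.08 ± 0.476. By contrast 10 of 22 antigens of this class had no count: MAGEC1, MAGEC2, CTAG1B, CTAG2, GAGE1, SSX2, PAGE1, PAGE5, DDX43 and BRDT. Beta subunit genes of chorionic gonadotropin were low but present, with CGB5 at 7.05 ± 1.64, CGB8 at 6.42 ± 0.849 and CGB2 at 3.54 ± 1.11. The shared alpha subunit CGA, and FSHB and TSHB, had no count. The CGB genes are near copies of one another, so only their presence as a family is secure.

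Markers of other cell types were checked because a culture can hold other cells. None of 12 leukocyte markers reached 1 FPKM, PTPRC had 3 counts over 6 libraries, and the list's summed level ran from 0.210 to 0.635 FPKM per library. CD3E, CD2 and MS4A1 had no count. Of 12 fibroblast markers COL1A1 alone passed 1, at 12.6, 13.5 and 15.5, while COL1A2, the other chain of collagen I, stood at 0.200, COL3A1 had 3 counts and PDGFRA, THY1 and POSTN had 0. EGFL7 (3.18 ± 0.677) was the one endothelial marker above 1, with PECAM1 at no count. Of 12 melanocyte and neuroendocrine markers ENO2, also an enolase of many lines, was the one above 1, and TYR, DCT, SOX10 and INSM1 had no count. Of 17 glandular or other epithelial markers none was at 1 in all libraries, and MUC5B, AMY1A, ALB, SFTPC, BPIFA1 and TG had no count. In these bulk libraries fewer cells of a type and less RNA per cell cannot be told apart.

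Among noncoding RNA genes with a listed role, MIR205HG, the host of the epithelial microRNA miR-205, was highest at 42.2, 43.5 and 46.5. The libraries measure the host transcript and not the mature microRNA, whose RefSeq sequence is printed for reference with its seed, bases 2 to 8, in capitals.
hsa-miR-205-5p (chr1:209432166-209432187, plus strand): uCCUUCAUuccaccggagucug
SNHG1 (41.8 ± 2.12), GAS5 (25.2 ± 1.68), DANCR (21.5 ± 1.32), H19, an imprinted RNA (20.6 ± 3.35), and SNHG5 (16.7 ± 1.28) followed. MALAT1 and NEAT1 were low in these mRNA libraries, at 8.11 ± 1.46 and 4.06 ± 0.860. Whether the selection of poly(A) tails affected their levels was not measured. MEG3, RMRP and RPPH1 had no count, and the last 2 lack the poly(A) tail that mRNA libraries select. RPPH1 also has 100% of its exon length in exons of another annotated gene on the same strand, so its value is uncertain.

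Over all noncoding genes the first was ENSG00000281181 (chr21:8437629-8438551), an unnamed gene of the chromosome 21 short arm, with 1664, 874, 1367, 1111, 1037 and 780 in replicates 1 to 6. Its CV of 28.8% was far above the median CV of 4.27% over 4165 protein-coding genes at 10 FPKM or more. LINC03061 followed at 297 ± 23.6, then BCYRN1 (129 ± 16), ENSG00000273760 (121 ± 6.58), the 5.8S ribosomal RNA gene RNA5-8SN3 (114 ± 46.6) and RN7SL1 of the signal recognition particle (86.4 ± 18.8). RNA5-8SN3, also on chromosome 21 (chr21:8395607-8395759), ran from 72.4 to 184 with a CV of 40.8%. Whether the reads of ENSG00000281181 came from ribosomal RNA was not tested.

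A large share of FPKM fell on pseudogenes. They held 33.2% ± 0.511 of summed FPKM but 8.32% ± 0.172 of counts, against 63.4% ± 0.462 and 89.9% ± 0.186 for protein-coding genes. EEF1A1P5 stood at 4237 ± 113 and EEF1A1P6 at 3551 ± 98.2, both above every protein-coding gene, RPL41P2 at 1817 ± 113 and RPS2P5 at 1460 ± 40.8. All 4 are annotated as processed pseudogenes, copies of mRNAs. Pseudogenes named after EEF1A1 together held 203% of that gene's own counts, those after FTH1 284%, after RPS2 190% and after KRT16 82.8%, while none carrying the names of KRT14, KRT5, KRT6A or SFN is annotated. The reads of such families cannot be placed with certainty, so levels of EEF1A1, RPL41, RPS2, FTH1, KRT16, KRT8 (40.8%) and KRT18 (24.3%) are uncertain, in an unknown direction.

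The libraries were close to one another. Over 16002 protein-coding genes with a count, Pearson's r of log2(FPKM + 1) was 0.9973 to 0.9981 in the 15 pairs, a description across genes, which are not independent replicates. The CV was 4.27% at the median of 4165 genes at 10 FPKM or more and passed 20% in 4 of them. The 10 most variable were LCE3E (29.7%), COL7A1 (23.5%), LCE3D (22.2%), SPRR3 (20.6%), COMMD8 (19.7%), SPRR2D (19.6%), IVL (19.2%), PI3 (17.9%), IFITM1 (17.5%) and DPM3 (17.3%). Of these 10, 5 code for cornified envelope proteins, and PI3 is also a substrate of cross-linking there. By a stricter cut, 10 FPKM in all 6 libraries, 9 listed cornified envelope genes passed, of 3950 protein-coding genes. Some of the 10 had few counts over the 6 libraries, such as LCE3E (326), DPM3 (407) and LCE3D (660), and counting error adds to their CV.

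The cornified envelope genes differed between replicates 1 to 3 and replicates 4 to 6. IVL stood at 18.5, 19.5 and 20.9 in replicates 1 to 3 and at 27.8, 28.2 and 27.4 in replicates 4 to 6, without overlap. Of 20 cornified envelope genes with a mean of 1 FPKM or more, 20 were higher on average in replicates 4 to 6, by a median of 0.36 on the log2 scale, and 11 without overlap (55%). Over all 10074 nuclear protein-coding genes at that level the median was -0.01, and 6.26% stood higher in all of replicates 4 to 6 and 9.65% lower. SPRR1B moved alike, at 266, 263 and 308 against 368, 352 and 338.

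Mitochondrial transcripts differed more. MT-CO1, a subunit of cytochrome c oxidase, stood at 401, 391 and 365 and then at 717, 818 and 1173, and all 13 mitochondrial protein-coding genes were higher in replicates 4 to 6, by a median of 1.16 (log2). The mitochondrial share of counts lay between 0.249% and 0.279% for replicates 1 to 3 and between 0.491% and 0.759% for replicates 4 to 6. The treated groups had the same division, for example 0.281% to 0.326% against 0.627% to 0.728% with the combination. The summed level of the 30 cornified envelope genes in untreated cells was 627 to 711 FPKM over replicates 1 to 3, and 794 to 840 over replicates 4 to 6, and 671 to 742 against 774 to 801 with EGCG. With resveratrol the ranges overlapped, at 535 to 610 and 564 to 596. With the combination replicates 4 to 6 were the lower ones, at 459 to 468 against 481 to 506.

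Length moved with the division too. Among genes at 10 FPKM or more, 331 of 539 with models of 8000 bases or longer (61.4%) were higher in replicates 4 to 6, against 101 of 473 (21.4%) from 1000 to 2000 bases, with medians of 0.02 and -0.06 on the log2 scale. DSP, a long desmosomal gene, stood at 58.2, 59.6 and 58.4 and then 68.8, 73.6 and 79.0. Its log2 difference of 0.33 was far above the 0.02 of its length class, so DSP is not typical of long genes. Of 21 desmosome and junction genes with a mean of 1 FPKM or more, 9 were higher without overlap (42.9%) and 2 lower. Over all nuclear protein-coding genes at that level 6.26% were higher and 9.65% lower. Only 1 gene of 4165, LCE3E, differed by 1.5-fold or more. Neither the labels nor the methods name a reason for the division, and what differed between these libraries was not tested.

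**Figure D4:**
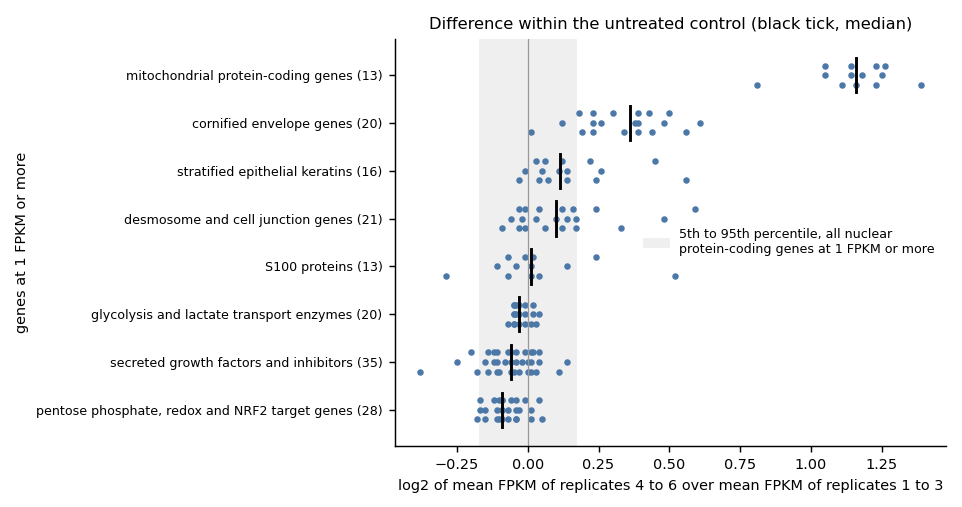
Log2 ratio of mean FPKM in untreated replicates 4 to 6 over replicates 1 to 3, 1 point per gene at 1 FPKM or more, with list medians as black ticks. The grey band holds the 5th to 95th percentile of all nuclear protein-coding genes, -0.17 to 0.17. Mitochondrial genes sit at a median of 1.16 and cornified envelope genes at 0.36, and glycolysis genes stay within the band.

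The baseline state was then set against the treated groups, which share these same 6 control libraries. Genes were called at an adjusted p under 0.1 and p under 0.05 in edgeR's quasi-likelihood test over 15476 genes. With EGCG 0.905% of all genes were called higher and 0.859% lower. With resveratrol the background was 28.9% higher and 28.0% lower, and with the combination 29.9% higher and 29.9% lower.

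The most abundant baseline genes leaned down under resveratrol. Of the 25, 21 were called lower (84.0%) and 1 higher with resveratrol, and 19 lower (76.0%) and 1 higher with the combination, against 1 lower (SLC7A5) with EGCG. Of the first 100, 85 and 79 were lower with resveratrol and the combination. The gene that rose was FTL, from 968 ± 42.1 to 1338 ± 57.5 with resveratrol (log2 change 0.47, SE 0.0344, edgeR adjusted p = 4.9e-14) and to 1392 ± 51.6 with the combination. GSTP1 stood at 705 ± 22.8 untreated, 704 ± 26.5 with resveratrol and 726 ± 20.5 with the combination and was not called. The median log2 change of the 25 was -0.26 with resveratrol and -0.22 with the combination. Both the 25 and the first 100 were chosen by their level in the same control libraries they were compared with. Genes with many counts are also called at smaller changes, so the share of all genes is not a matched background for them.

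Of the 4 markers the keratins moved most. KRT14 fell from 1654 ± 39.5 to 1352 ± 39.6 with resveratrol (log2 change -0.29, SE 0.0281, edgeR adjusted p = 7.4e-11) and to 1307 ± 45.0 with the combination, in both cases without overlap of libraries, and it stood at 1599 ± 84.7 with EGCG, where it was not called. KRT5 changed by -0.29 and -0.37 (log2) with resveratrol and the combination. TP63 stood at 53.7, 52.1 and 57.0 in untreated, resveratrol and combination cells, a log2 change of 0.09 called with the combination (edgeR adjusted p = 0.00778) though the libraries overlapped. EGFR stood at 124 ± 7.10, 116 ± 5.57 and 122 ± 6.67, called lower with resveratrol at an edgeR adjusted p of 0.0848, also with overlap.

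Baseline groups did not share a direction. With resveratrol 17 of 22 tested cornified envelope genes were lower (77.3%) and 2 higher, 9 of 12 S100 genes were lower (75%) and 1 higher, and 10 of 16 hemidesmosome genes lower and 2 higher. In the opposite direction 22 of 28 redox genes were higher and 2 lower, and 22 of 28 lipid and sterol genes higher and 3 lower. Antigen presentation genes had 13 of 21 higher (61.9%). Stratified keratins were near the background with resveratrol, with 6 of 16 lower (37.5%) and 4 higher (25%). They were not with the combination, where 10 of the 16 were lower (62.5%) and 3 higher (18.8%), against 29.9% of all genes each way. With EGCG 7 of 22 glycolysis genes were higher (31.8%), among them LDHA (from 151 ± 2.54 to 175 ± 3.39) and PGK1 (from 78.3 ± 3.48 to 91.7 ± 2.75). The same list with resveratrol had 5 higher and 13 lower.

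Among the 25 most abundant genes, the 6 highest of each list and the 4 markers, the 6 with the largest changes were taken for each comparison. With EGCG they were the 5 tested CGB genes and KRT81. The CGB genes are near copies of one another, so their changes are those of a family and not separate results. CGB3 had 67 counts over the 6 untreated libraries. CGB3 and CGB7 share 47.4% and 42.2% of their exon length with other genes. CGB5 fell from 7.05 ± 1.64 to 2.62 ± 0.574 (log2 change -1.45, SE 0.165, edgeR adjusted p = 2.4e-07), and the log2 changes of CGB3, CGB8, CGB2 and CGB7 were -2.0, -1.11, -1.09 and -0.79. KRT81 fell from 17.8 ± 1.000 to 11.4 ± 0.986 without overlap.

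With resveratrol CYP1B1 fell from 14.2 ± 0.592 to 2.25 ± 0.240 (log2 change -2.66, SE 0.0607, edgeR adjusted p = 8.9e-29), ALDH1A3 from 16.8 ± 0.739 to 3.40 ± 0.287 and the cytokine IL24 from 4.85 ± 0.506 to 1.07 ± 0.288. IL1B and H19 changed by -1.49 and -1.31 (log2), and EPHX1, microsomal epoxide hydrolase, rose from 10.9 ± 0.797 to 25.6 ± 0.955. With the combination the 6 of the same set were CYP1B1 (-2.77), ALDH1A3 (-2.29), IL24 (-1.82), H19 (-1.48), FOXA1 (1.33) and SPRR2E (-1.27) on the log2 scale. FOXA1, an endodermal factor, was below 1 FPKM untreated, at 0.507 ± 0.139, and reached 1.28 ± 0.117. Within replicates 1 to 3 alone and 4 to 6 alone the log2 change of CYP1B1 with resveratrol was -2.74 and -2.58, and that of SPRR2E with the combination -0.95 and -1.61.

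Several lower members of the lists changed by as much or more, and are named here after their values were seen. CYP1A1 fell from 5.96 ± 0.599 FPKM to 0.258 ± 0.0933 with resveratrol (log2 change -4.51, edgeR adjusted p = 3.1e-24), and it stood at 0.297 ± 0.0954 after both agents. AKR1C2 rose from 4.37 ± 0.406 to 22.7 ± 1.39 with resveratrol, a log2 change of 2.39, and by 2.34 with both. AKR1C1 and AKR1C3 rose by 2.24 and 1.88 on that scale with resveratrol. For GDF15 the means were 7.63 ± 0.363 under resveratrol and 9.96 ± 1.03 under both agents, log2 changes of 2.24 and 2.63. CXCL8, at 2.57 ± 0.395 in untreated cells, reached 6.12 ± 1.27 and 9.76 ± 1.06. None of these genes had libraries that overlapped between untreated cells and either treatment.

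**Figure D5:**
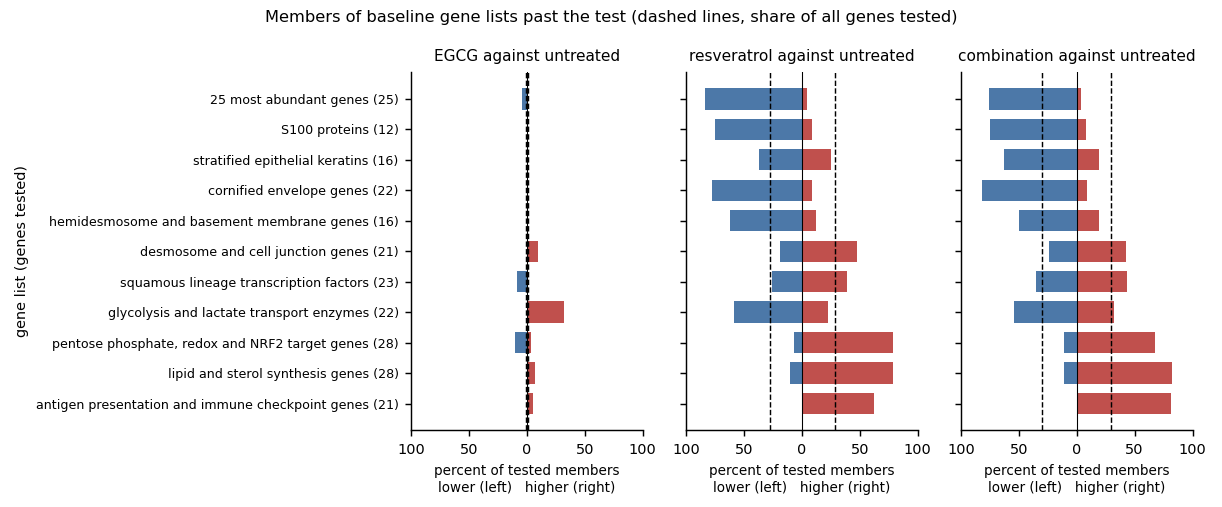
Share of tested members of 11 baseline gene groups called higher (right, red) or lower (left, blue) in each treated group against the untreated control, with the background of all 15476 genes as dashed lines. With resveratrol 84.0% of the 25 most abundant genes and 77.3% of cornified envelope genes are lower, and 78.6% of redox and of lipid genes are higher. The 25 genes were chosen by their level in the untreated libraries, and the background is not matched for level.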

How the data were processed

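The untreated control was described from 6 libraries of the 24. The authors sequenced paired reads of stranded mRNA libraries (TruSeq) and, per the labels' processing notes, used bcl2fastq 2.17.1.14, Trimmomatic 0.36, FastQC 0.11.5, HISAT2 2.0.4 to GRCh38, SAMtools 1.3.1 and DESeq2 1.20.0. The counting program, annotation release and strand setting are not given in the sources used here. The authors deposited raw counts per gene, normalized counts (a signal: counts divided by 1 size factor per library) and FPKM. In a check, each deposited FPKM was the normalized count over the length of its gene, times 1 constant, and 73.7% of 33491 recovered lengths equalled merged exons of GENCODE v44. Of 60617 gene identifiers 60261 had an entry there. FPKM values sum to 341513 to 355123 per library, so they are not TPM.

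Levels were means, SD, CV and ranges of FPKM. Depth was 8542934 to 9737422 counts per library, counting error is largest for genes with few counts, and a count of 0 was given the limit of 3 counts, which covers counting error only. Groups came from the sample titles. Treated groups were compared on raw counts of all 24 libraries with edgeR 4.0.16 in R 4.3.3 (filterByExpr, TMM, quasi-likelihood test, calls at an unadjusted p under 0.05 with a Benjamini-Hochberg value under 0.1). SE is the absolute log2 change divided by the root of the F statistic. The edgeR steps alone were run on simulated counts, with changes placed in the combination group only. Far fewer genes were changed there than were called in the real data, so that run does not show how the calls behave here. Exon sharing was computed from GENCODE v44, promoter and microRNA sequences came from RefSeq tables (GRCh38.p14), and protein sequences were not used here. Python 3.11.15 with pandas 2.3.3 did the rest.

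The members and gene lists were chosen with earlier results of these data known. Genes were named by rule: the 25 most abundant, list members (the 6 highest, those without counts, and role-defining ones), 4 markers, the 10 largest CVs, the 6 highest noncoding genes, and for treatments the 6 largest changes among the 25, the 6 highest of each list and the markers. LDHA, PGK1, FTL, GSTP1, IVL, SPRR1B, DSP, MT-CO1, CYP1A1, GDF15, CXCL8 and the AKR1C genes were shown in comparisons after their values were seen. GSTT1 was listed but had no match. Some listed genes are not reported here. Alternatives were other cut-offs, TPM, raw counts, other pseudocounts, DESeq2 1.42.0, DESeq2 size factors, no filter, the groups compared alone, the replicate block, each untreated library left out and, chosen after seeing the data, replicates 1 to 3 and 4 to 6 apart.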

Additional observations from a re-analysis of the deposited data

Results flagged for a closer look

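Dixon's criterion was applied to 289 items over the 6 libraries: the reported genes with a count, and measures of library size and content. In 23 of them, all genes, the highest or lowest library was far from the others, a share of 7.96%. Chance gives about 1 in 20, but a gene counted in 1 library alone always passes, as ARG1, KRT2, FLT1 and ZEB2 did. The share is therefore no measure of an excess over chance. Replicate 3 was the outlying library for 8 genes, replicate 1 for 6 and replicate 6 for 5.

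Among genes at 1 FPKM or more the outlying library was high for PLEC (193 FPKM in replicate 6), S100A6 (244), HLA-E (46.1) and JUNB (86.7) in replicate 3, and for DHCR7 (146) and CDH1 (68.2) in replicate 1. It was low for PFN1 (602), MIF (77.5), TGFBR2 (28.3) and AKR1C2 (3.59) in replicate 6, TOP2A (90.8) and KLF4 (10.7) in replicate 3, VEGFB (34.9) in replicate 5, PRAME (6.17) in replicate 2 and OVOL1 (1.61) in replicate 1.

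Below 1 FPKM the outlying value rested on few counts. It was high for CRNN (0.167), CPT1B (0.180) and ARG1 (0.0538) in replicate 3 and for KRT2 (0.0411), FLT1 (0.00840) and ZEB2 (0.00425) in replicate 1. It was low for CD274 (0.345) in replicate 5 and for LORICRIN (0) in replicate 4.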

How the results depend on the processing

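The number of genes at or above the level cut in all libraries went from 9737 to 10656 at 0.5 FPKM, 10074 by the mean and 11098 in TPM, and lay between 9755 and 9773 with 1 library left out. The 25 most abundant genes held 11.3% of protein-coding FPKM, 7.28% of raw counts and, in an alternative chosen after seeing the data, 7.17% of the FPKM of all genes. The lowest correlation between libraries was 0.9930 with a pseudocount of 0.1 and 0.9979 with 10. Genes called with EGCG numbered 273. They fell to 84 in replicates 1 to 3 alone and 85 in replicates 4 to 6 alone, both chosen after seeing the data and with fewer libraries, and lay between 217 and 249 with 1 untreated library left out. The counts for resveratrol (8807) and the combination (9258) lay within 1.5 times of these values under every alternative run. TPM multiplied the median of each of the 20 lists at 1 FPKM or more by 2.88 to 2.90. Leaving out members without a count moved 16 of 33 list medians by more than the spread between libraries. At 8542934 to 9737422 counts per library, levels of genes with a few counts are not precise.

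With the replicate block the number called was 370 for EGCG, 9042 for resveratrol and 9479 for the combination. Deviations of libraries with the same number correlated at 0.0178 to 0.131 for EGCG (1 of 6 pairs over 0.1), 0.0279 to 0.0945 for resveratrol and -0.000953 to 0.0916 for the combination, so the numbers were not taken to pair the samples. A library correlated best with its own number in 4, 3 and 2 of 6 cases.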
